A study of Danio rerio and Garra andruzzii with 24 samples.

Results

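The first hour of blue light was examined in PAC-2 cells, a zebrafish cell line derived from embryos and labelled as fibroblasts. The comparison takes in 6 of the 24 libraries of the study, chosen by their labels: 3 libraries after 1 h of blue light (468 nm) and 3 at 0 h (control), harvested before the light was switched on. Both groups were grown in L-15 medium with 15% FBS and had spent 2 days in darkness. The study sampled the same cells again at 3 h and 6 h and treated a cavefish line in parallel, to learn which genes fish cells switch on in visible light. No dark library was taken after 0 h, so that in these libraries the light and the hour that passed cannot be told apart. For *soul5*, *hebp2*, *abcb6a* and *per2* alone, the study shows RT-qPCR of PBS-treated PAC-2 cells kept in darkness for hours. It reports no significant change in them.

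Cells of fish respond to light directly, outside the eye. Light raises reactive oxygen species and the activity of stress-activated kinases in these cells, and many of the genes that follow carry a D-box, a short enhancer bound by the PAR-bZip activators Tef, Hlf and Dbp and by the repressor Nfil3. Known targets include the negative limb of the circadian clock (period and cryptochrome genes) and photolyases, enzymes that use light to repair damage by ultraviolet radiation.

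The 1 h libraries held 21252428 to 31333859 counts and the 0 h libraries 20037859 to 26161339. Of 35886 genes in the table, 18017 had enough counts for a test. Mitochondrially encoded genes took 5.13% to 5.23% of the counts at 1 h, against 4.98% to 5.68% at 0 h, and no library of either group stood apart (correlation of log2 values 0.985 to 0.989 within and between the groups). Of 23 fibroblast markers in the table, 17 exceeded 1 TPM (a level that accounts for gene length) at 0 h, led by *col1a2* at 461 TPM. Epidermis markers were present as well, with *icn* at 9707 TPM, while markers of blood and immune cells summed to 2.03 to 3.10 TPM at 1 h, against 1.83 to 3.06 TPM at 0 h, and 0 of 18 markers of liver and yolk exceeded 1 TPM at 0 h. No marker of any cell type was called in the comparison, where 0.172% of all genes tested were. Summed muscle markers ran from 63.6 to 67.1 TPM at 1 h, against 73.0 to 74.8 TPM at 0 h, and pigment cell markers from 214 to 220 TPM at 1 h, against 180 to 204 TPM at 0 h, the only lists of other cell types without overlap, and their part in the results below was not tested. Most of each of these 2 sums came from 1 gene, *acta1a* for muscle (60.8 TPM at 0 h) and *dct* for pigment cells (182 TPM at 0 h). In such bulk RNA, fewer cells of a type and less RNA per cell cannot be told apart.

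The response after 1 h was small and almost one-sided. At the study's threshold (a fold of at least 2 either way, or 1 on the log2 scale, at an adjusted p under 0.001 from edgeR's quasi-likelihood test with Benjamini-Hochberg adjustment over all genes), 4 genes rose (0.0222% of those tested): *lonrf1l*, *soul5*, *nfil3-6* and *cry5*. None fell (0%); edgeR gave 475 lower genes at an unadjusted p under 0.05 (2.64%), and DESeq2 called 1 lower gene at the same threshold. With the adjusted p under 0.05 and no limit on the fold, 28 genes rose (0.155%) and 3 fell (0.0167%). They include genes of clock repressors, photolyases, heme and mitochondrial proteins, RING-finger proteins and stress-induced transcription factors. In each of the 31 genes, the 3 libraries of 1 h lay beyond all 3 of 0 h, which 10.1% of all genes tested showed. The calls were made on these same libraries, so that the separation is no further support for them. The other times in the same fit show the scale: 2031 genes higher and 1827 lower at 3 h and 2546 higher and 2686 lower at 6 h, all against the same 0 h libraries. The number that rose was 54 with DESeq2 and 12 in a fit of the 1 h and 0 h libraries alone, which lost 18 of the 31 calls, and 17 without 0 h library 2. The number that fell was 13 with DESeq2, 9 without 0 h library 1 and 5 without 0 h library 3.

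**Figure D1:**
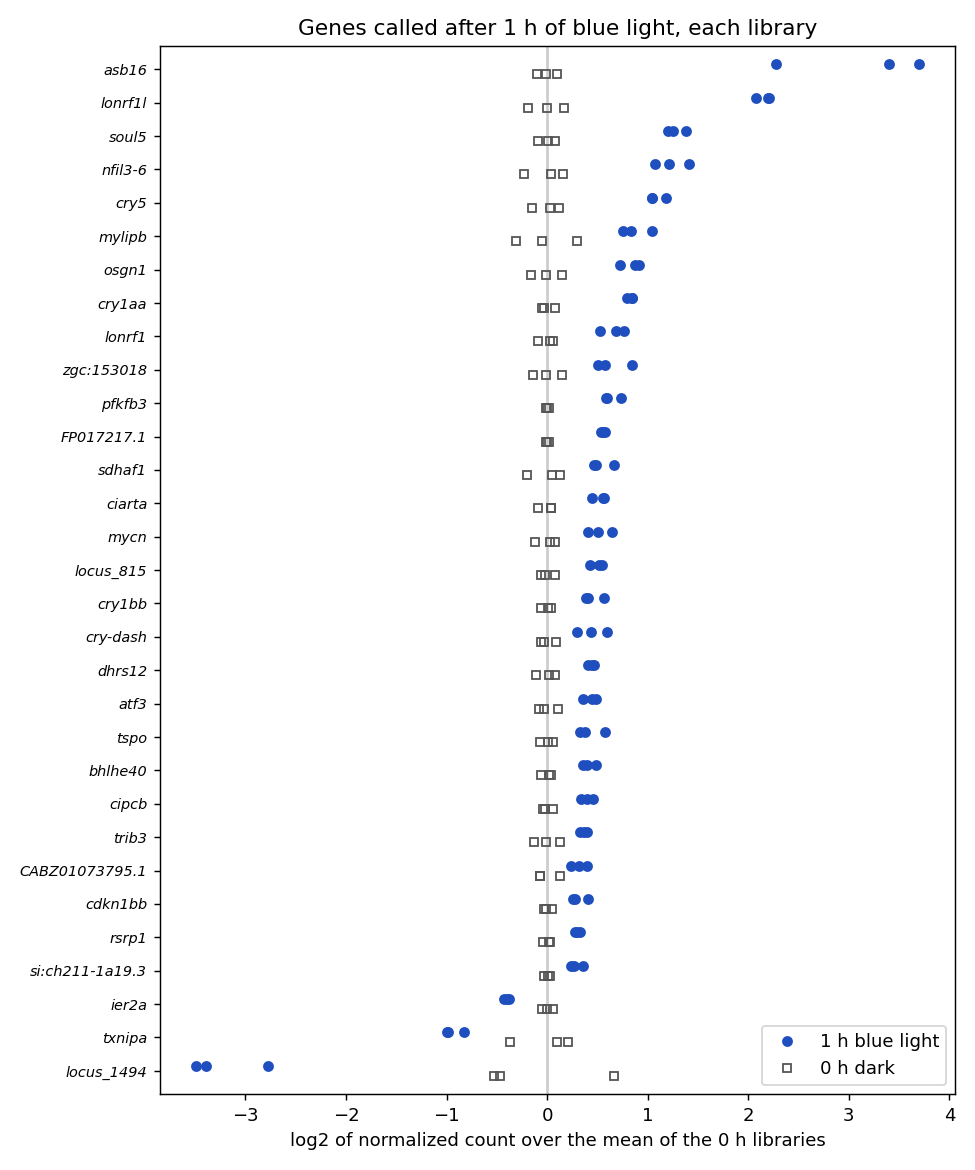
Each library's normalized count of the 31 called genes, as log2 over the mean of the 0 h libraries (horizontal axis), for 1 h of blue light (filled circles) and 0 h (open squares), in the order of the fold change. Circles and squares do not overlap in any gene, and most differences are below 1 on the log2 scale.

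The largest precise change was that of *lonrf1l* (ENSDARG00000078567, GRCz11 chr8:13700605-13788311, plus strand), which encodes a protein with a RING finger and a LON protease N-terminal domain. Its normalized counts were 1702, 1711 and 1570 in the libraries of 1 h, against 417, 326 and 372 at 0 h. Every light-exposed library thus stood about the same distance above the dark ones. With edgeR, the log2 fold change was 2.15 ± 0.07 (standard error) and the adjusted p 5.12e-11, a 4.44-fold increase, to 26.9 TPM at 1 h, against 5.97 TPM at 0 h. Its relative *lonrf1*, on chromosome 14, rose less, with 777, 731 and 655 normalized counts at 1 h, against 430, 474 and 465 at 0 h (log2 fold change 0.66, adjusted p = 0.00012 from edgeR). A gene of another ubiquitin ligase, *mylipb*, whose mammalian counterpart marks lipoprotein receptors for degradation, had 147, 139 and 169 normalized counts at 1 h, against 79.2, 66.5 and 101 at 0 h (log2 fold change 0.89, adjusted p = 0.016 from edgeR). The calls of *lonrf1l* and *lonrf1* held without any single library, while that of *mylipb* was lost without 0 h library 1 (log2 fold change 0.86, as in the brackets of such fits from here on), 0 h library 2 (0.76) or 1 h library 3 (0.80). On the other strand, *lonrf1l* overlaps *si:dkey-258f14.2* (log2 fold change 0.20, not called) and *si:dkey-258f14.7*, and *lonrf1* overlaps *itk*. Neither *si:dkey-258f14.7* nor *itk* was among the genes tested. As the strand setting of the counting was not given, reads of the shared parts cannot be told apart.

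**Figure D2:**
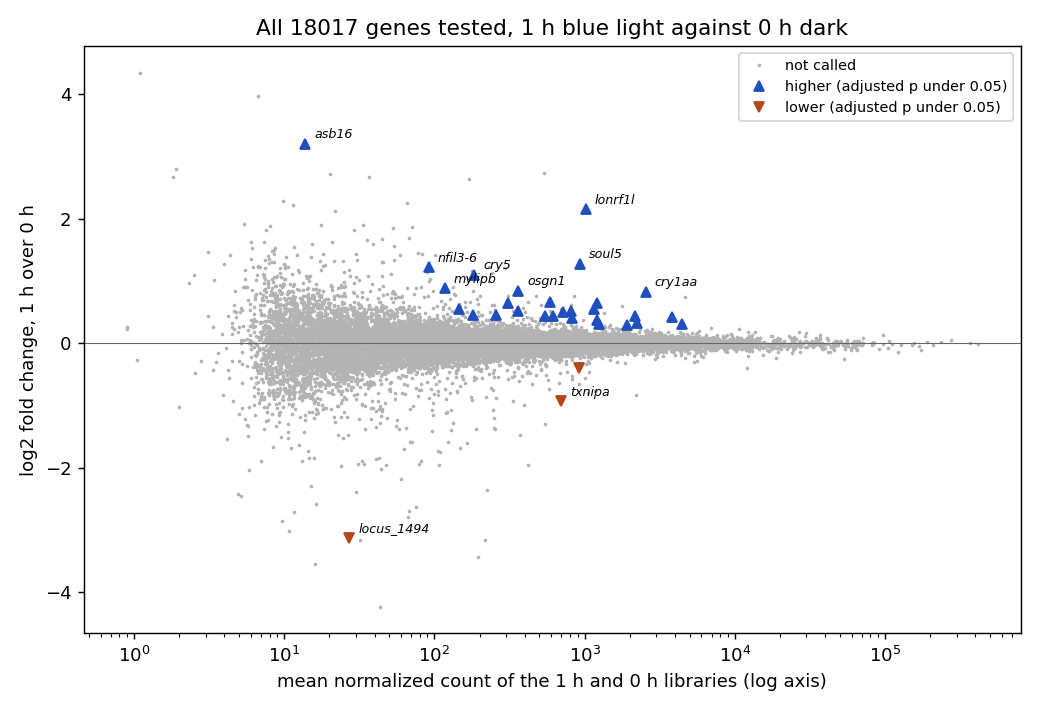
The log2 fold change of each of the 18017 genes tested (1 h over 0 h, vertical axis) against its mean normalized count in both groups (horizontal, log axis), with genes called higher (upward triangles) and lower (downward triangles). Calls above about 500 counts reach down to a log2 fold change of 0.29, whereas the cloud of uncalled genes widens towards low counts.

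The clock genes called higher all belong to the repressing side of the clock. *cry1aa*, a cryptochrome that inhibits the activators Clock and Bmal, had 3303, 3181 and 3298 normalized counts at 1 h, against 1943, 1802 and 1771 at 0 h. The groups were far apart relative to their spread (log2 fold change 0.82 ± 0.04, standard error, and adjusted p = 2.46e-08 from edgeR). *ciarta*, which encodes the Clock-Bmal repressor also known as Chrono, had 996, 914 and 983 counts at 1 h, against 631, 691 and 691 at 0 h (log2 fold change 0.52, adjusted p = 0.000419 from edgeR). *bhlhe40* encodes a repressor that binds E-boxes, the enhancers used by Clock and Bmal. It reached 4281, 4165 and 4545 counts at 1 h, against 3127, 3334 and 3297 at 0 h (log2 fold change 0.41, adjusted p = 0.00012 from edgeR). A second cryptochrome, *cry1bb*, had 323, 290 and 287 counts at 1 h, against 221, 225 and 210 at 0 h, and *cipcb*, for a Clock-interacting repressor, 971, 931 and 894 at 1 h, against 735, 688 and 695 at 0 h (log2 fold changes 0.45 and 0.40, adjusted p = 0.0157 and 0.0124 from edgeR). The first 3 calls held without any single library. That of *cry1bb* was lost without 0 h library 1 (0.46), 2 (0.47) or 3 (0.42) or 1 h library 1 (0.40), and that of *cipcb* without 0 h library 2 (0.38), 1 h library 1 (0.37) or 1 h library 2 (0.40).

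The list of clock genes does not hold *cipcb*. Of its 29 genes tested, 4 rose and none fell, where 0.155% and 0.0167% of all genes did. The median log2 fold change of the list was 0.09, against -0.0045 over all genes, and the list's median lay above all 0 h libraries in each 1 h library. In 10 of the 29, every library of 1 h lay above every library of 0 h, and in 1 below; over all genes these shares were 5.42% (977 genes) and 4.68% (843 genes). Outside the calls stood *cry2*, with 1490, 1611 and 1407 counts at 1 h, against 1282, 1243 and 1224 at 0 h (log2 fold change 0.27, adjusted p = 0.0541, the gene nearest the threshold). *per2*, a period repressor, had 549, 562 and 513 counts at 1 h, against 448, 420 and 445 at 0 h, groups that do not overlap (log2 fold change 0.31, adjusted p = 0.11), and passed with DESeq2 (adjusted p = 0.0332) and without a filter on low counts (adjusted p = 0.0298 from edgeR). *nr1d2b*, for a Rev-erb repressor, had a log2 fold change of 0.22 and an adjusted p of 0.0997, and *per1b* one of 0.26 with an adjusted p of 0.591. Of the activator genes, *clocka* and *clockb* had log2 fold changes of 0.16 and -0.08, neither past the test. *rorcb*, for a Ror nuclear receptor, had one of 0.29 (adjusted p = 0.659 from edgeR), with groups that overlapped. The list's largest log2 fold change, 0.84, belonged to a gene not called. *cry2*, *nr1d2b*, *rorcb*, *clocka* and *clockb* were singled out after their values had been seen.

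Among factors that bind the D-box, the repressor gene *nfil3-6* rose (ENSDARG00000087188, chr3:14099693-14103551, minus strand). It had 146, 127 and 115 normalized counts at 1 h, against 61.3, 46.8 and 56.5 at 0 h, a low level that nevertheless separated the groups (log2 fold change 1.22 ± 0.13, standard error, and adjusted p = 0.00012 from edgeR). An unannotated locus on the same strand of chromosome 3, 7136 bases from it (chr3:14081322-14092557), rose too. This locus (locus_815), assembled from the reads, is annotated in the table with a basic region leucine zipper, the domain of the Nfil3 and PAR-bZip families, and had 869, 855 and 804 counts at 1 h, against 629, 571 and 590 at 0 h (log2 fold change 0.50, adjusted p = 0.0012 from edgeR). Both calls held without any single library at an adjusted p under 0.05, but *nfil3-6* no longer passed the study's threshold without 0 h library 2 (log2 fold change 1.12) or 1 h library 2 (1.23). The other 3 genes past that threshold kept it in every such fit. In the fit of the 1 h and 0 h libraries alone, *nfil3-6* and *cry5* missed it (adjusted p = 0.0327 and 0.00837 from edgeR). Of the 7 annotated PAR-bZip and Nfil3 genes tested, *nfil3-6* alone was called, where 0.155% of all genes rose and 0.0167% fell. *tefa*, for an activator, had a log2 fold change of 0.18 (adjusted p = 0.48) and *tefb* one of 0.04 (adjusted p = 0.995).

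Among genes of the photolyase family, *cry5* was clearly higher after the hour and *cry-dash* only at the edge of the threshold. *cry5* (ENSDARG00000019498, chr10:39264802-39283883, minus strand) encodes the photolyase of 6-4 photoproducts, a form of ultraviolet damage. It had 241, 241 and 267 normalized counts at 1 h, against 106, 119 and 127 at 0 h, so that the lowest light-exposed library was well above the highest dark one. With edgeR, this was a 2.14-fold increase (standard error of the log2 fold change 0.08, adjusted p = 1.22e-06). *foxred1*, which overlaps *cry5* on the other strand, had a log2 fold change of -0.00041. *cry-dash*, of the same protein family, had 189, 208 and 233 counts at 1 h, against 164, 150 and 147 at 0 h (log2 fold change 0.45, adjusted p = 0.0473 from edgeR). Its call lay just inside the threshold and was lost without 0 h library 1 (0.50), 2 (0.43) or 3 (0.42) or without 1 h library 2 (0.46) or 3 (0.37), while that of *cry5* held in all these fits. In the list of genes that repair light-induced damage, 2 of 33 rose and none fell, where 0.155% and 0.0167% of all genes did, with a median log2 fold change of 0.02. *xpc*, which recognises damage in excision repair, averaged 357 ± 7.12 counts at 1 h and 315 ± 29.7 at 0 h (SD, n = 3 each, adjusted p = 0.749 from edgeR).

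Heme and mitochondrial genes were led by *soul5* (ENSDARG00000075015, chr3:53476155-53486169, minus strand), which encodes a heme-binding protein of the SOUL type. Its normalized counts were 1419, 1298 and 1253 at 1 h, against 513, 549 and 578 at 0 h. With edgeR, the log2 fold change was 1.28 ± 0.07 (standard error) and the adjusted p 2.87e-08, with 53.2 TPM at 1 h, against 21.7 TPM at 0 h, and the call held without any single library. *tspo*, which encodes a porphyrin-binding protein of the outer mitochondrial membrane, had 2412, 2328 and 2779 counts at 1 h, against 1768, 1868 and 1942 at 0 h (log2 fold change 0.43, adjusted p = 0.00763 from edgeR). Its call held without any single library but was lost in the fit of the 1 h and 0 h libraries alone (adjusted p = 0.107 from edgeR). It was the most abundant of the genes that rose, with 198 TPM at 1 h, against 146 TPM at 0 h. *dhrs12*, for a short-chain dehydrogenase, had 616, 643 and 634 counts at 1 h, against 492, 432 and 473 at 0 h (log2 fold change 0.44, adjusted p = 0.00944 from edgeR). *sdhaf1*, for an assembly factor of respiratory complex II, had 164, 188 and 166 counts at 1 h, against 123, 103 and 130 at 0 h (log2 fold change 0.55, adjusted p = 0.0425 from edgeR). The groups were separate in both, but the call of *dhrs12* was lost without 0 h library 2 (0.39) or 1 h library 2 (0.42), and that of *sdhaf1* without 0 h library 1 (0.57) or 2 (0.46) or any library of 1 h (0.48 to 0.58). *sdhaf1* shares bases with *si:ch211-191j22.3* on the same strand, so that reads of the shared part cannot be assigned to either.

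For *soul5* and *dhrs12*, the study lists short elements resembling the D-box in the stretch upstream of the start site and in the 5′ leader, found with the binding matrices of Nfil3 and the PAR-bZip factors. Overlapping matches of that list are shown once, as the longest, and E-box matches are left out. For *soul5*, the study reports more putative D-boxes than are printed here. *sdhaf1*, which the list gives an E-box match alone, and *tspo* are not shown. The elements are printed as the study's predictions for *soul5* and *dhrs12*. Their part in the rise at 1 h was not tested. In the study, a *soul5* promoter fragment drove a luciferase reporter that light and hydrogen peroxide induced in PAC-2 cells. In the cavefish line this reporter did not follow the light cycle. Capitals mark the run of 8 bases closest to the D-box TTANGTAA (N is any base) on either strand. The share of all zebrafish promoters that hold such elements was not computed.
soul5, element 1: atcTTACACAAcac
soul5, element 2: agaTTTCATAAca
dhrs12, element 1: aaaTTGCTTAAtt
dhrs12, element 2: gaTGATGTAAtaa
dhrs12, element 3: aaaTTATGTAAatc
Of the 7 fixed bases of the D-box, 7 match in element 3 of *dhrs12* and 6 in each of the other 4 elements.

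Other heme genes were not called. The median log2 fold change over 33 heme and iron genes was 0.06, with 2 genes higher and none lower, where 0.155% and 0.0167% of all genes were. In 7 the libraries of 1 h lay above all of 0 h and in 1 below, where 5.42% and 4.68% of all genes did. *hebp2*, a heme-binding relative of *soul5*, had 178, 168 and 191 counts at 1 h, against 140, 98.5 and 104 at 0 h (log2 fold change 0.62 ± 0.13, standard error, and adjusted p = 0.13). *abcb6a*, a porphyrin transporter, had 216, 223 and 183 counts at 1 h, against 158, 175 and 151 at 0 h (log2 fold change 0.36, adjusted p = 0.33). In both the groups were separate, and in both the adjusted p from edgeR missed the threshold. *hebp2* passed it with DESeq2 (adjusted p = 0.00103) and without 0 h library 1, the highest of the dark group (log2 fold change 0.82, adjusted p = 0.0127 from edgeR). *fech*, for the last enzyme of heme synthesis, had a log2 fold change of 0.43 (adjusted p = 0.53), while *alas1*, for the first enzyme, had one of 0.03 and *hmox1a*, for heme oxygenase, one of -0.05. These 3 genes were singled out with their values known.

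In the study's own list of mitochondria and heme-related genes, 4 of 61 tested rose (*soul5*, *tspo*, *dhrs12* and *sdhaf1*) and none fell, where 0.155% and 0.0167% of all genes did. The study chose this list at 6 h from these same cells, with the same 0 h libraries, so that its direction at 1 h is not independent evidence. Its median log2 fold change was 0.09, with 49 members above 0 and 12 below (48.4% of all genes were above 0). In 15 members all libraries of 1 h lay above those of 0 h and in 3 below, where 5.42% and 4.68% of all genes did. The remaining genes that were also measured by RT-qPCR were not called. *blvra* had a log2 fold change of 0.17, *sdha* 0.09, *prdx1* 0.03 and *slc23a2* -0.20, with adjusted p between 0.856 and 0.995 from edgeR. The groups were separate in *blvra*, at 157, 164 and 152 counts at 1 h, against 149, 137 and 135 at 0 h. *slc23a2* averaged only 25.6 counts at 1 h, against 28.6 at 0 h, and its log2 fold change had a standard error of 0.25.

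Metabolic and stress genes were also among the named increases. *osgn1*, for an oxidative stress induced growth inhibitor, had 429, 475 and 488 counts at 1 h, against 233, 288 and 259 at 0 h (log2 fold change 0.84, adjusted p = 7.69e-05 from edgeR). *pfkfb3* makes fructose 2,6-bisphosphate, an activator of glycolysis. It had 1560, 1413 and 1419 counts at 1 h, against 950, 929 and 937 at 0 h, a tight dark group and a clear gap (log2 fold change 0.64, adjusted p = 0.00012 from edgeR). Both calls held without any single library. *pfkfb3* was 1 gene higher (0.155% of all genes), with none lower, among 19 hypoxia and glycolysis genes, whose median log2 fold change was 0.05. Of 30 genes of Nrf2, glutathione and peroxide removal, none was called, where 0.172% of all genes were, and their median was 0.05. The factor gene *nfe2l2a* itself had a log2 fold change of 0.20 (adjusted p = 0.25 from edgeR), with separate groups.

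Among genes linked to stress signalling and amino acid shortage, *atf3* and *trib3* were called. *atf3* encodes a transcription factor induced by many stresses and had 736, 714 and 671 counts at 1 h, against 496, 513 and 563 at 0 h (log2 fold change 0.43, adjusted p = 0.0157 from edgeR). *trib3*, for a pseudokinase that answers to Atf4, had 1322, 1365 and 1393 counts at 1 h, against 1052, 964 and 1155 at 0 h (log2 fold change 0.37, adjusted p = 0.0124 from edgeR). The call of *atf3* was lost without 0 h library 1 (0.39) or 2 (0.42) or 1 h library 1 (0.40) or 2 (0.43), and that of *trib3* without 0 h library 2 (0.30) or 1 h library 2 (0.36). All 15 members of the amino acid stress list had log2 fold changes above 0, from 0.01 to 0.37 with a median of 0.10, and in 8 of them the libraries of 1 h lay above all of 0 h, as in 5.42% of all genes. Among these, *sesn2* had 397, 412 and 441 counts at 1 h, against 322, 339.7 and 343 at 0 h, and *ddit3* 4655, 4633 and 4429 at 1 h, against 4241, 4115 and 3795 at 0 h, but neither passed the test (adjusted p = 0.307 and 0.508). The factor gene *atf4a* had a log2 fold change of 0.01.

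Immediate early genes, which cells commonly switch on within minutes of a stimulus, showed no common direction. Of 31 tested, *atf3* rose and *ier2a* fell, where 0.155% and 0.0167% of all genes did. The median log2 fold change was 0.0099, and 6 members had all libraries of 1 h above and 6 below those of 0 h, where 5.42% and 4.68% of all genes did. *ier2a* had 776, 802 and 788 counts at 1 h, against 1038, 1003 and 1082 at 0 h (log2 fold change -0.40, adjusted p = 0.00586 from edgeR). Members of the AP-1 family went different ways without passing the test: *jund* had a log2 fold change of 0.26 and *fosl1a* 0.23, against -0.25 for *junba* and -0.04 for *jun*. For *fosab*, the value was 0.06.

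The annotated gene with the larger fall was *txnipa*, whose protein inhibits thioredoxin and glucose uptake. It had 458, 462 and 514 counts at 1 h, against 708, 1056 and 978 at 0 h. The groups were separate although 1 dark library was lower than the other 2 (log2 fold change -0.93 ± 0.12, standard error, and adjusted p = 0.00242 from edgeR). Without that library (0 h library 1), the log2 fold change was -1.09 and *txnipa* passed the study's threshold. The calls of *txnipa* and *ier2a* held without any single library, but both were lost in the fit of the 1 h and 0 h libraries alone (adjusted p = 0.118 and 0.0712 from edgeR, at log2 fold changes of -0.93 and -0.40). The third gene that fell was an unannotated locus (locus_1494) with the domains of elongation factor Tu, on the alternate contig CHR_ALT_CTG12_2_1, at 4.66, 7.17 and 4.36 normalized counts at 1 h, against 33.9, 77.5 and 35.5 at 0 h (log2 fold change -3.12 ± 0.50, standard error, and adjusted p = 0.0159 from edgeR). Few reads stand behind it, a locus on an alternate contig can share reads with its copy elsewhere, and the call was lost without 1 h library 1 (-3.04), 2 (-3.40) or 3 (-2.97).

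The remaining increases were in genes of growth control, RNA processing and unknown function. *mycn*, for a Myc factor, had 463, 419 and 390 counts at 1 h, against 301, 272 and 312 at 0 h (log2 fold change 0.52, adjusted p = 0.0353 from edgeR). *cdkn1bb*, for a cyclin-dependent kinase inhibitor, had 1338, 1324 and 1467 at 1 h, against 1098, 1082 and 1142 at 0 h (log2 fold change 0.31, adjusted p = 0.0127 from edgeR). *rsrp1*, for an arginine- and serine-rich protein, had 4923, 4855 and 5025 at 1 h, against 4044, 3892 and 4081 at 0 h, a difference of only 0.30 on the log2 scale but beyond the spread (adjusted p = 0.00122 from edgeR, but 0.0802 in the fit of the 1 h and 0 h libraries alone). The antisense gene *FP017217.1*, which overlaps *brd8* on the opposite strand, had 1389, 1353 and 1371 counts at 1 h, against 923, 942 and 932 at 0 h (log2 fold change 0.56, adjusted p = 7.69e-05 from edgeR), while *brd8* had a log2 fold change of -0.15. Since the strand setting of the counting was not given in the sources used here, reads of that pair cannot be told apart.

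The 4 other increases were *asb16*, *zgc:153018*, *CABZ01073795.1* and *si:ch211-1a19.3*. *asb16*, for an ankyrin repeat protein with a SOCS box, had the largest fold on the fewest reads, with 12.8, 34.3 and 27.9 normalized counts at 1 h, against 2.83, 2.46 and 2.63 at 0 h (log2 fold change 3.20 ± 0.58, standard error, and adjusted p = 0.0305 from edgeR). It was called in 1 of 6 fits that left out a library, and its log2 fold change in them ran from 2.91 to 3.49. *zgc:153018* had 433, 343 and 360 counts at 1 h, against 219, 267 and 239 at 0 h (log2 fold change 0.65, adjusted p = 0.013), lost without 0 h library 1 (0.57) or 1 h library 1 (0.54). For *CABZ01073795.1* and *si:ch211-1a19.3* the log2 fold changes were 0.32 and 0.29. The first was lost without 0 h library 2 or 3 or 1 h library 2 or 3 (0.28 to 0.32), and the second without any of the 6 (0.25 to 0.32). Likewise *mycn* was kept only without 1 h library 3, with 0.46 to 0.56 in the 5 fits that lost it, and *cdkn1bb* was lost without 0 h library 1 (0.31) or 2 (0.30) or 1 h library 3 (0.26).

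Beyond the calls, differences were mostly small. The median log2 fold change over all 18017 genes was -0.0045, and 93.9% of genes had an absolute value under 0.5. Among the 6560 genes with a mean of at least 500 normalized counts, the log2 fold change ran from -0.13 at percentile 5 to 0.13 at percentile 95. Of these genes, 48.1% had a log2 fold change above 0. Separate groups were found in 977 genes above (5.42%) and 843 below (4.68%), 10.1% in all. Separate groups give an exact permutation test of 3 against 3 libraries its smallest p, 0.1 (two-sided), so that separation alone picks out no gene. Among genes with separate groups and high counts, more lay above than below. Of 5764 genes with 500 to 5000 counts, 352 lay above (6.11%) and 239 below (4.15%). Of 796 with 5000 or more, 55 lay above (6.91%) and 23 below (2.89%). In genes under 50 counts the order was opposite, with 195 above (4.65%) and 236 below (5.62%) of 4198. The typical size of a separate shift was 0.13 on the log2 scale between 500 and 5000 counts and 0.09 from 5000 counts. An unadjusted p under 0.05 was found for 1085 genes (6.02%), 610 of them higher (3.39%), and one under 0.01 for 273 (1.52%). At an unadjusted p under 0.001, 63 genes were higher (0.350%) and 14 lower (0.0777%), calls included. None of the 796 genes of the highest class was called, where the median standard error was 0.05. Over all genes 0.172% were called, so that no call among these is near that share.

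By this measure, gene lists moved little. Of 35 lists, the median over the list's genes lay above all 0 h libraries in every 1 h library for the clock, heme and iron, amino acid stress and the study's mitochondria and heme-related genes, and below for mitosis genes. For each of the other 30 lists the libraries overlapped. Of single genes, 10.1% had separate groups in either direction, so that separate medians alone pick out no list. The heme and iron list and the study's list share genes, among them *soul5* and *tspo*. The clock median was 0.028 in 1 h library 3, against 0.013 in 0 h library 1, the highest of the dark group. Mitosis genes had a median log2 fold change of -0.10, with 22 of 24 below 0, 10 with all libraries of 1 h below those of 0 h (4.68% of all genes) and none called. *cenpe*, a kinesin of the kinetochore, had a log2 fold change of -0.20 (adjusted p = 0.113) and *top2a*, topoisomerase II, one of -0.14 (adjusted p = 0.483). Nucleolar genes of ribosome biogenesis (32, median -0.09) and p53 pathway genes (16, median -0.08) had no calls either. In the p53 list, 6 genes had all libraries of 1 h below those of 0 h and none above (4.68% and 5.42% of all genes), with *cdkn1a*, the p21 inhibitor, at -0.16. The 13 mitochondrially encoded genes were all below 0, with a median of -0.08, but their 1 h libraries fell inside the range of the 0 h libraries. Genes of cytosolic ribosomal proteins (83), chaperones (34), splicing regulators (24), proteasome subunits (43) and histones (17) had medians of -0.01, -0.02, -0.03, -0.0012 and -0.02 without a call. With 0.172% of all genes called, lists of these sizes without a call are near that share.

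**Figure D3:**
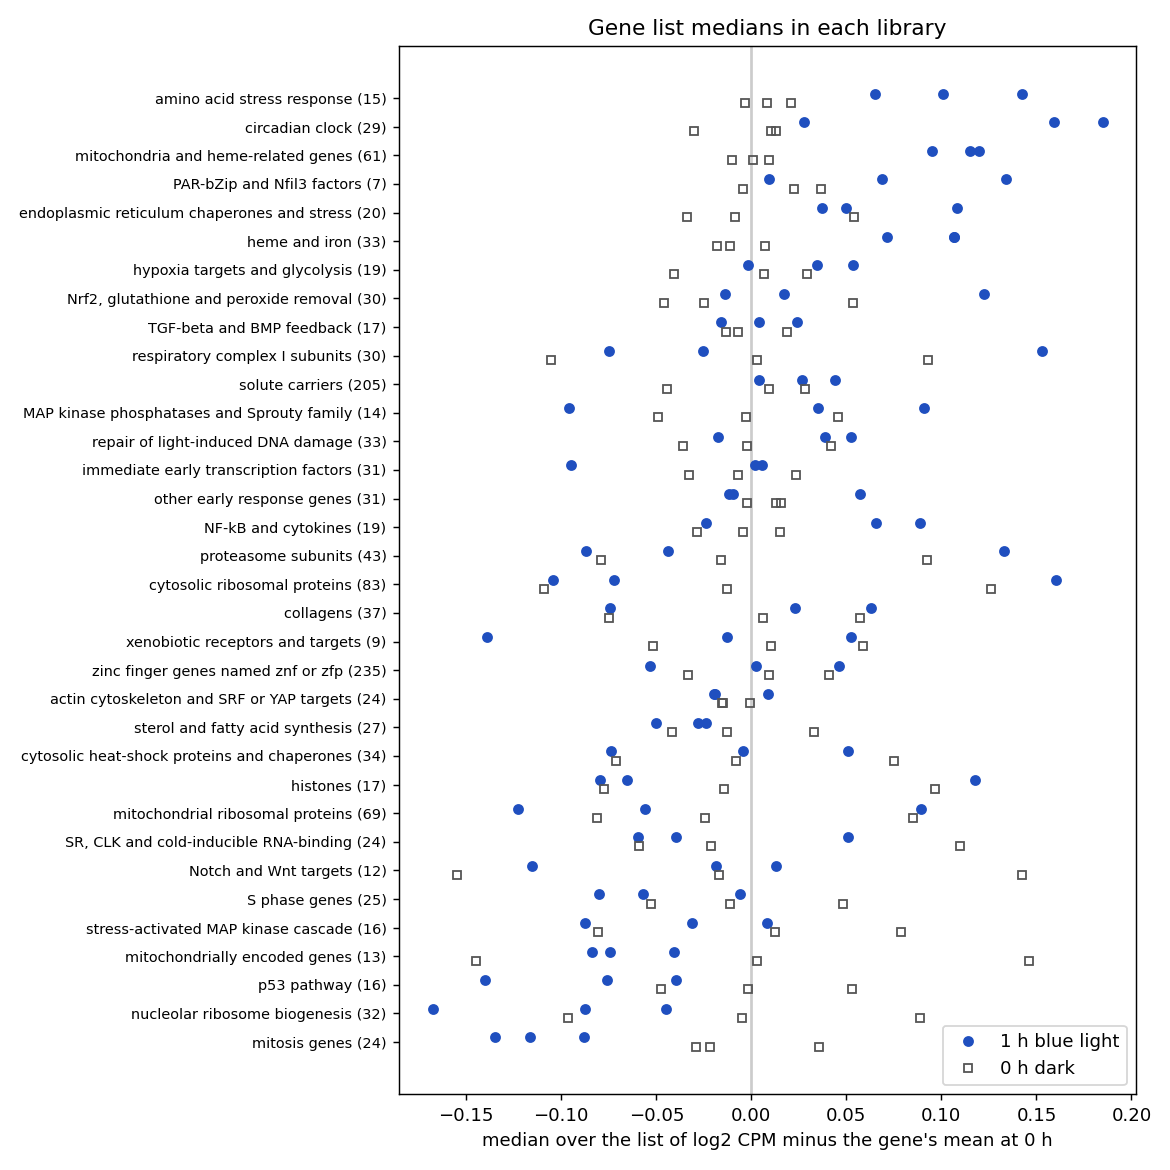
For 34 lists with at least 5 genes tested, the median over the list of log2 CPM minus each gene's mean at 0 h (horizontal axis), with 1 point per library for 1 h of blue light (filled circles) and 0 h (open squares) and the number of genes in brackets. Amino acid stress, clock, heme and iron, and mitochondria and heme-related genes lie above the 0 h libraries in all libraries of 1 h and mitosis genes below. The 1 h medians of these lists run from -0.135 (mitosis genes) to 0.185 (clock).

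Of the genes that rose at 1 h, most had higher counts still at the later times. The later times are given beside the first hour as values of their own, and each comparison shares libraries with it. At 3 h against 1 h, 19 of the 28 were called higher and 1 lower, where 9.85% and 8.82% of all genes were. At 6 h against 1 h, 22 were called higher and 5 lower, beside 13.2% and 13.8% of all genes. *soul5* averaged 546 ± 32.6 normalized counts at 0 h, 1323 ± 86.0 at 1 h, 21676 ± 1010.3 at 3 h and 40267 ± 2575 at 6 h (SD, n = 3 each). *cry5* averaged 117 ± 11.0 counts at 0 h, 249.7 ± 14.6 at 1 h, 2037 ± 41.3 at 3 h and 2799 ± 58.9 at 6 h. For both, the first hour was a small part of the later difference. *lonrf1l* was nearer to its later level, with 1661 ± 79.0 counts at 1 h, 6047 ± 143 at 3 h and 5082 ± 283 at 6 h. Among genes not called at 1 h, *per2* averaged 541 ± 25.1 counts at 1 h and 7940.1 ± 465 at 3 h, and *hebp2* 179 ± 11.4 at 1 h and 2578 ± 205 at 3 h.

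A smaller group had its highest or nearly highest level in the first hour. *ciarta* averaged 671 ± 34.2 counts at 0 h, 964 ± 44.3 at 1 h, 898 at 3 h and 225 at 6 h (6 h against 1 h, log2 fold change -2.10, adjusted p = 1.1e-12 from edgeR). *cipcb* had 620, 599 and 550 counts at 6 h, and *bhlhe40* 3741, 3700 and 3664, both called lower than at 1 h (log2 fold changes -0.66 and -0.23). *si:ch211-1a19.3* was lower again at 6 h than at 1 h (-0.25), and *asb16* was lower at 3 h (-1.44) and at 6 h (-2.01). *mycn* differed from 1 h past the test neither at 3 h nor at 6 h (log2 fold changes 0.05 and -0.18). *atf3* is not of this group: its log2 fold change was -0.00060 at 3 h against 1 h, and it was called higher at 6 h (0.22, adjusted p = 0.031 from edgeR). *per1b*, not called at 1 h, had 270, 247 and 212 counts at 6 h. Of the genes that fell, *txnipa* had 518, 518 and 483 counts at 3 h and 436, 497 and 445 at 6 h, close to its value at 1 h, and the unannotated locus with elongation factor domains had 60.4, 23.3 and 44.6 at 3 h, a level like that in the dark.

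**Figure D4:**
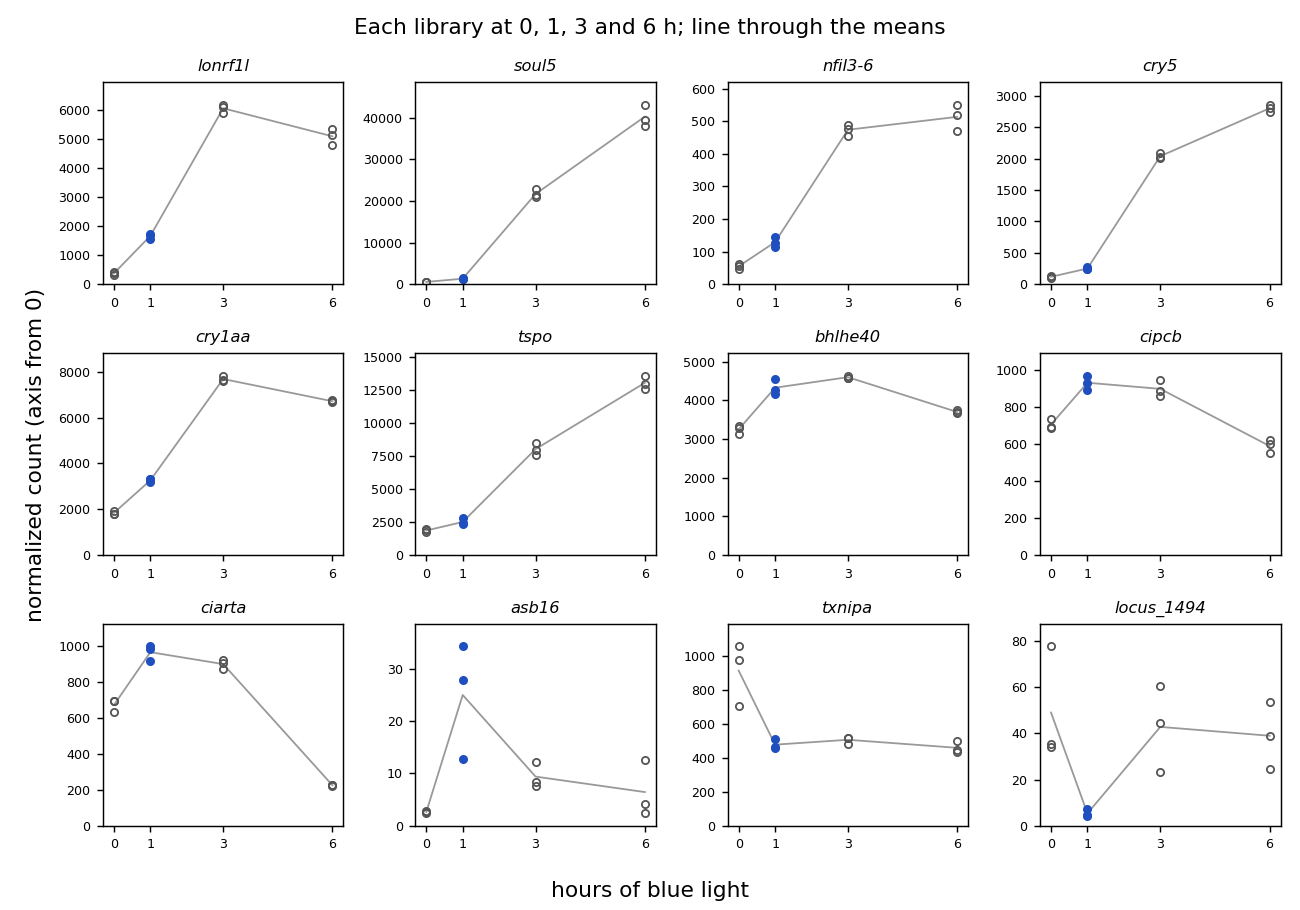
Normalized counts (vertical axes from 0) of 12 called genes at 0, 1, 3 and 6 h of blue light, with a point for each of 3 libraries, filled at 1 h, and a line through the means. The top row and *cry1aa* and *tspo* are higher at 3 h than at 1 h, *ciarta* and *cipcb* are lowest at 6 h, and *txnipa* stays near its level at 1 h.

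The genes that rose spanned fewer bases than most. The 26 protein-coding genes among them spanned a median of 9662 bases from start to end of the gene, against 18029 for the 14077 protein-coding genes tested, and the longest was *lonrf1l* with 87707 bases. No protein-coding gene of 100 kb or more was called, of 856 from 100 to 200 kb and 317 from 200 kb. With 0.172% of all genes called, the lack of a call among so few says little. Over the protein-coding genes tested, the median log2 fold change at 1 h was nearly flat with span, at -0.0078 under 5 kb and -0.02 from 200 kb, whereas against the same dark libraries the 3 h medians were 0.10 and -0.16 and the 6 h medians -0.09 and 0.18. Mean counts differ too, at a median of 717 in the called genes, against 332 in all protein-coding genes tested, and their part in this difference was not tested. By biotype, 26 protein-coding genes, 1 unannotated locus and 1 antisense gene rose, of 14077, 3390 and 81 tested. Of 160 lincRNA genes none was called, too few to tell at a share of 0.172% over all genes.

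Counts of transcripts assembled without the genome, from the same reads, gave 23 Trinity genes higher and 2 lower of 23412 tested. Trinity genes are named by their best protein match, often in another species. Those called included matches to Lonrf1 (LONF1_MOUSE, log2 fold change 2.09), a cryptochrome (CRY1_SYLBO, 0.74), a SOUL protein (HEBP2_HUMAN, 1.21), Nfil3 (NFIL3_DANRE, 0.57, and NFIL3_XENLA, 1.17), Ciart (CIART_MOUSE, 0.54) and, lower, Txnip (TXNIP_PIG, -0.94). Matches to the amino acid stress genes Chac1 (CHAC1_DANRE, 0.38), Atf4 (ATF4_RAT, 0.25) and to a Ddit4-like protein (DDT4L_ONCMY, 0.53) were called higher too. No gene of these names was called in the genome table, where *atf4a* was nearly flat. Which Atf4 gene the match stands for was not settled. The Trinity names given here were picked with their values known. No called Trinity gene was named for a photolyase, Tspo or Dhrs12. Others called had no protein match, among them the largest increases (log2 fold changes 10.0 and 7.88).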

How the data were processed

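The deposited table gives raw counts in whole numbers per gene; the authors' sequencing provider mapped the reads to GRCz11 (also named in the submitters' processing notes), while the aligner, counting program and strand setting were not given in the sources used here. For the Trinity genes of PAC-2 cells, the authors deposited expected counts (estimated counts of salmon), rounded to whole numbers for the tests. Columns with FPKM and further cell line tables were not used. All 12 PAC-2 libraries (4 times, 3 libraries each) entered 1 edgeR fit (version 4.0.16 with limma 3.58.1, R 4.3.3) of quasi-likelihood type, with robust dispersions, TMM factors, the filterByExpr filter by time and 8 residual degrees of freedom, and the 1 h libraries were compared with 0 h, Benjamini-Hochberg adjusted over 18017 genes. Normalized counts are TMM-normalized at the mean library size. TPM was computed from counts and gene lengths. Locus numbers name the 3985 loci of the table that come from assembled reads and match no annotated gene.

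Named genes were those called at a fold of 2, the 15 largest increases and decreases with separate groups and a mean of at least 20 counts, the 8 most significant calls under 0.5 on the log2 scale in each direction, at most 4 called members per list and direction, and the study's RT-qPCR genes. The members and the 35 gene lists were chosen with earlier results of these data known. Whether libraries of a time came from separate cultures is not said, so that p-values measure the spread between libraries, which may be technical; a permutation of 3 against 3 could not give an exact p below 0.1. Libraries of a group differed beyond sampling noise. Alternatives were other size factors, DESeq2 1.42.0, other filters, the 1 h and 0 h libraries alone, no robust dispersion, removal of a gene length trend, a replicate block, a test against a fold of 1.2, each library left out, and Trinity genes. The script's tests were checked on simulated data. The motif search in promoters was not run, as promoter sequences were not at hand.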

Additional observations from a re-analysis of the deposited data

How the results depend on the processing

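The count at a fold of 2 was 4 higher genes in most settings, 3 when tested against a fold of 1.2, 2 in a fit of the 1 h and 0 h libraries alone, and 3 to 4 with a library left out. Lower genes at that threshold numbered 1 with DESeq2 (locus_1494) and 0 to 1 with a library left out (*txnipa* without 0 h library 1, locus_3234 without 0 h library 2). At an adjusted p under 0.05, 54 genes were higher and 13 lower with DESeq2, 12 higher with the 1 h and 0 h libraries alone, and 17 to 26 higher and 2 to 9 lower with a library left out. The cause of these differences was not tested. No filter on low counts gave 38 higher genes, no robust dispersion 23 and removal of a gene length trend 32.

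Of the 31 calls, 16 held in all 6 fits that left out a library and 12 in every alternative. No call changed sign, and DESeq2 lost none. With the 1 h and 0 h libraries alone 18 were lost. *prdx1*, not called, had a log2 fold change of -0.0085 without 1 h library 3, the lowest of a range up to 0.072 (without 0 h library 3). Of 525 list medians recomputed under the alternatives, 482 changed little from the main fit. Their change was below the SD of that list's medians over the 0 h libraries. Whether replicate numbers pair the samples was not settled. The correlation of same-numbered deviations was 0.09, 0.02 and 0.16 between 1 h and 0 h. Yet the TMM factors of libraries 1 to 3 ran in the same order, at 1.03, 1.02 and 0.98 at 1 h, against 1.04, 1.01 and 0.97 at 0 h. With the replicate number as a block, 24 genes were higher and 3 lower, and 4 higher at a fold of 2.

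Depth limits the low end: under 50 normalized counts the median standard error of the log2 fold change was 0.36, against 0.07 between 500 and 5000 counts. The smallest absolute log2 fold change called was 3.12 under 50 counts, against 0.29 between 500 and 5000. Changes of a fold of 2, and larger ones too, were thus mostly not detectable in weakly expressed genes. A comparison of promoter motifs was not run.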
